A study of Schizosaccharomyces pombe with 4 samples.

Results

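Trimethylation of histone H3 at lysine 9 (H3K9me3) was followed over 6 genes of fission yeast, Schizosaccharomyces pombe, that are known to be repressed by thiamine (vitamin B1): nmt1, thi2, thi4, thi9, bsu1 and pho4. They are 6 of 4942 protein-coding genes measured by at least 2 tiles, and their intervals hold 40 of the 41551 tiles on the array. The members were chosen because their ratios differed between OFF and ON cells in these data, so each OFF minus ON value given for them is a description. Chromatin was precipitated with an antibody to H3K9me3, and the recovered DNA (ChIP, Cy5) and whole-cell extract DNA (input, Cy3) were hybridised together to a tiling array of 60-mers placed every 300 bp.

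Cells carried tetR-clr4, in which the Tet repressor is fused to Clr4, the enzyme that methylates H3K9 in fission yeast. The labels give neither the promoter that drives the fusion nor what the genotype clr3-CDx2 is beyond its name; clr3 encodes a histone deacetylase. All cells were first grown in minimal medium at 32 °C for 20 generations without thiamine and then for 5 generations with 850 µg/ml 5-fluoroorotic acid. The 4 groups, with 1 array each, were clr3-CDx2 OFF, clr3-CDx2 ON, wt OFF and wt ON. OFF cells had been moved for 14 generations to medium that held thiamine at 5 µg/ml and tetracycline at 2.5 µg/ml. ON cells were fixed before that move. Thiamine and tetracycline were added together, OFF cells were harvested later, and 5-fluoroorotic acid is not named for the later growth, so these 4 changes cannot be told apart. With 1 array per group there was no spread between replicates, no p-value and no error on any difference, and a gene was counted as called at a log2 difference of 1 or more, a 2-fold change.

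Thiamine, as its diphosphate, is a cofactor of pyruvate decarboxylase, transketolase and other enzymes. Fission yeast can make it by joining a pyrimidine and a thiazole, or can take it up from the medium, and when thiamine is present the genes for synthesis and uptake are shut off. The best known of them, nmt1 ("no message in thiamine"), gives the promoter used in many fission yeast expression vectors. H3K9me3 is the mark of heterochromatin, which in fission yeast lies mainly at centromeres, telomeres and the silent mating-type region. RNA was not measured here, and neither was total histone H3, so H3K9me3 per nucleosome and the number of nucleosomes cannot be told apart.

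The stretch just upstream of each gene is shown because it holds the promoter that thiamine is known to act on. The tile differences were larger towards this end at 4 of the 6 genes, but not at thi9 and pho4. A link between these differences and the promoters was not tested. The 100 bases before each annotated gene start, 5′ to 3′ on the strand of the gene, were read from the RefSeq genome (assembly ASM294v3), with any TATATAAA or TATAAA in capitals.
nmt1 chrIII:1838315-1838414 (+): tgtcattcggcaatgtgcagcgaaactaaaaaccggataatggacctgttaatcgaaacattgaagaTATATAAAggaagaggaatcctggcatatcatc
thi2 chrII:3940426-3940525 (+): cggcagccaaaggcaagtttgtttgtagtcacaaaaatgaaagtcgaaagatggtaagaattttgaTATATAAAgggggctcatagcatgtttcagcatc
thi4 chrI:1589833-1589932 (+): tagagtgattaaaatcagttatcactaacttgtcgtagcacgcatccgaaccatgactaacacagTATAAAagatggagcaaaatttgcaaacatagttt
thi9 chrI:1482319-1482418 (+): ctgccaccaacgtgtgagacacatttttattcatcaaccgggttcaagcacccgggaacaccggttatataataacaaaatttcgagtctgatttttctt
bsu1 chrI:3549934-3550033 (+): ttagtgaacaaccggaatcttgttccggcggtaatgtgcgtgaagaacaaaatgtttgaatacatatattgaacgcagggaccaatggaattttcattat
pho4 chrII:447029-447128 (-): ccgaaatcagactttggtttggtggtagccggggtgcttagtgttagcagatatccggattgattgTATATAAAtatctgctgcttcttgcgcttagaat

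TATATAAA began 33 bases before the annotated start of nmt1 and 34 bases before those of thi2 and pho4, and it was present in 3 of the 6 stretches. The shorter TATAAA, which TATATAAA contains, was in 4 of 6, the fourth being thi4, where it began 35 bases before the start. Searched on both strands in the same 100 bases of 5112 genes, TATATAAA was found in 3.03% and TATAAA in 18.8%. The stretches of thi9 and bsu1 held neither run of letters. These matches describe sequence and show no binding.

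The ratio used throughout is log2 of ChIP over input signal, centred so that the middle tile of each array is at 0. The level of a gene is the median over the tiles of its interval, and its difference is the median of the tile-by-tile differences, which can depart slightly from the difference of the levels. At all 6 genes the ratio was far below the array median in ON cells, at -2.65 to -1.15 in clr3-CDx2 ON and -2.42 to -1.10 in wt ON. In OFF cells it was above its ON level at each gene, at -0.30 to 1.41 in clr3-CDx2 OFF and -0.32 to 1.26 in wt OFF, with bsu1 the highest and the other 5 between -0.32 and 0.38. OFF minus ON was 1.19 to 3.01 in clr3-CDx2, with a median of 2.76, and 1.06 to 2.74 in wt, with a median of 1.97. All 6 were at 1 or more in each genotype, as were 1.52% of all measured genes in clr3-CDx2 and 0.587% in wt, and the members were picked on this contrast. Of all measured genes, members included, 0.425% (21 of 4942) were at 1 or more in both genotypes.

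**Figure D1:**
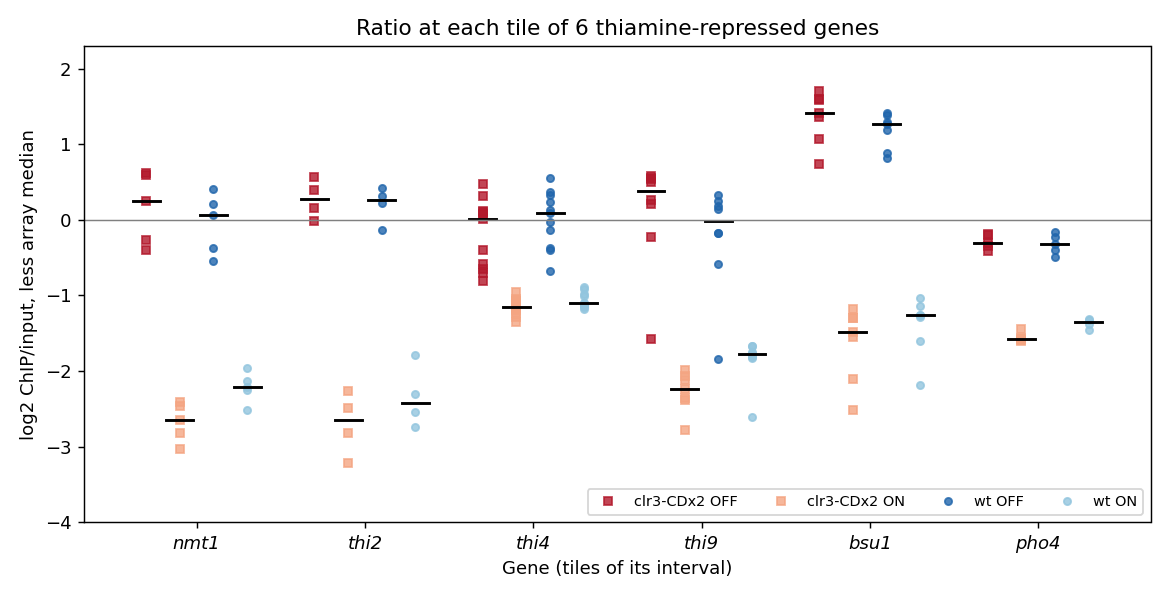
log2 ratio of ChIP over input, less the array median, at each tile (points) of the 6 genes on the 4 arrays, with the median as a bar. ON values lie at -0.89 or below at every gene, and apart from the low tiles of thi9 and thi4 the OFF values lie well above them.

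The enzymes of thiamine synthesis are described first. The gene nmt1 (SPCC1223.02, ASM294v3 chrIII:1838415-1839664, plus strand) encodes the synthase of the pyrimidine part, 4-amino-5-hydroxymethyl-2-methylpyrimidine phosphate. Its level was 0.25 in clr3-CDx2 OFF and -2.64 in clr3-CDx2 ON, against 0.06 in wt OFF and -2.21 in wt ON. The median processed ChIP signal over its 5 tiles was 2054 in clr3-CDx2 OFF and 187 in clr3-CDx2 ON, against 1742 in wt OFF and 293 in wt ON. Both ON arrays were low and both OFF arrays high, and no tile of an ON array reached a tile of an OFF array. The ratio was 7.45-fold higher in OFF than in ON cells of clr3-CDx2 (log2 2.90) and 4.56-fold higher in wt (log2 2.19).

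The gene thi2 (SPBC26H8.01, ASM294v3 chrII:3940526-3941699, plus strand) encodes the enzyme that makes the thiazole part. It read 0.28 in clr3-CDx2 OFF and -2.65 in clr3-CDx2 ON, against 0.26 in wt OFF and -2.42 in wt ON. OFF minus ON was 3.01 in clr3-CDx2 and 2.74 in wt over its 4 tiles, or 8.08-fold and 6.67-fold. Its tiles in ON cells lay between -3.22 and -2.26 in clr3-CDx2 and between -2.75 and -1.79 in wt, so every tile of the interval was depleted relative to the array median. The ChIP signal was 1570 in clr3-CDx2 OFF and 141 in clr3-CDx2 ON, against 1459 in wt OFF and 210 in wt ON, and the ON signals were the lowest of any member on their arrays.

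The gene thi4 (SPAC23H4.10c, ASM294v3 chrI:1589933-1593248, plus strand) encodes a bifunctional enzyme, thiamine-phosphate dipyrophosphorylase and hydroxyethylthiazole kinase, which joins the pyrimidine and thiazole parts. It read 0.01 in clr3-CDx2 OFF and -1.15 in clr3-CDx2 ON, against 0.09 in wt OFF and -1.10 in wt ON. The difference was 1.19 in clr3-CDx2 and 1.07 in wt, or 2.29-fold and 2.10-fold, so it lay just past the 2-fold mark. It was uneven along the gene: the part towards the 5′ end had median tile differences of 1.36 in clr3-CDx2 and 1.37 in wt, and the part towards the 3′ end 0.42 and 0.74. Only 6 of its 11 tiles in clr3-CDx2 and 8 of 11 in wt were at 1 or more. The gene cdb4, which encodes a curved DNA-binding protein, overlaps thi4 on the opposite strand and read 0.56 (clr3-CDx2) and 0.88 (wt) for OFF minus ON. Its 4 tiles are among the 11 of thi4, so this is no separate measurement and cannot be assigned to either gene.

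The remaining members act in uptake and at the cell surface. The gene thi9 (SPAC9.10, ASM294v3 chrI:1482419-1484752, plus strand) encodes the high-affinity thiamine transporter of the plasma membrane. It read 0.38 in clr3-CDx2 OFF and -2.24 in clr3-CDx2 ON, against -0.01 in wt OFF and -1.77 in wt ON. OFF minus ON was 2.62 in clr3-CDx2 and 1.74 in wt, or 6.14-fold and 3.34-fold. Its first tile was the exception within the interval, at -1.58 in clr3-CDx2 OFF and -2.79 in clr3-CDx2 ON, and at -1.84 in wt OFF and -2.61 in wt ON, so it was low on all 4 arrays. In clr3-CDx2 ON the last of its 8 tiles was marked non-uniform and left out.

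The gene bsu1 (SPAC17A2.01, ASM294v3 chrI:3550034-3552067, plus strand) encodes a carrier that imports vitamin B6. It read 1.41 in clr3-CDx2 OFF and -1.48 in clr3-CDx2 ON, against 1.26 in wt OFF and -1.26 in wt ON, and it alone among the members reached 1 in OFF cells. In OFF cells the annotated bsu1 gene stood at percentile 95.8 of 4942 genes in both clr3-CDx2 and wt, and in ON cells at percentiles 5.24 and 5.73. OFF minus ON was 2.92 in clr3-CDx2 and 2.67 in wt, or 7.56-fold and 6.37-fold, and all 7 tiles were at 1 or more in each genotype.

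The gene pho4 (SPBC428.03c, ASM294v3 chrII:445324-447028, minus strand) encodes an acid phosphatase that thiamine represses. It read -0.30 in clr3-CDx2 OFF and -1.57 in clr3-CDx2 ON, against -0.32 in wt OFF and -1.35 in wt ON, and was the only member below the array median on all 4 arrays. OFF minus ON was 1.27 in clr3-CDx2 and 1.06 in wt, or 2.41-fold and 2.09-fold. All 5 tiles were at 1 or more in clr3-CDx2 and 3 of the 4 usable tiles in wt, where 1 tile was marked on the ON array.

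The members fell into a set of 4 with large differences and a pair, thi4 and pho4, with small ones. Over the tiles of the annotated genes, nmt1 ranked 1 of 4942 genes for OFF minus ON in clr3-CDx2, thi2 ranked 2, bsu1 3 and thi9 4, while pho4 ranked 52 and thi4 58. In wt the ranks were 1 for thi2, 2 for bsu1, 3 for nmt1, 4 for thi9, 23 for thi4 and 24 for pho4. The members were picked on this contrast, so the ranks are a description. The same 4 genes led in both genotypes, but their order among themselves depended on the tiles used and on the background correction. Over its 4 tiles in the annotated gene nmt1 read 3.16 in clr3-CDx2. Over the 5 tiles of its interval it read 2.90, below thi2 at 3.01 and bsu1 at 2.92. With normexp correction of the spot signals, bsu1 read 4.02 in clr3-CDx2 and 3.43 in wt, thi9 3.09 and 2.41, nmt1 2.97 and 2.80, and thi2 2.24 and 2.33. In ON cells the annotated nmt1 gene had a level at percentile 0.0405 of all genes in clr3-CDx2 and 0.202 in wt, and thi2 at 0.0809 and 0.0405, so these lay at the lowest end of the genome. In OFF cells nmt1 stood at percentiles 65.2 and 54.3 and thi2 at 58.7 and 61.3, near the middle.

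**Figure D2:**
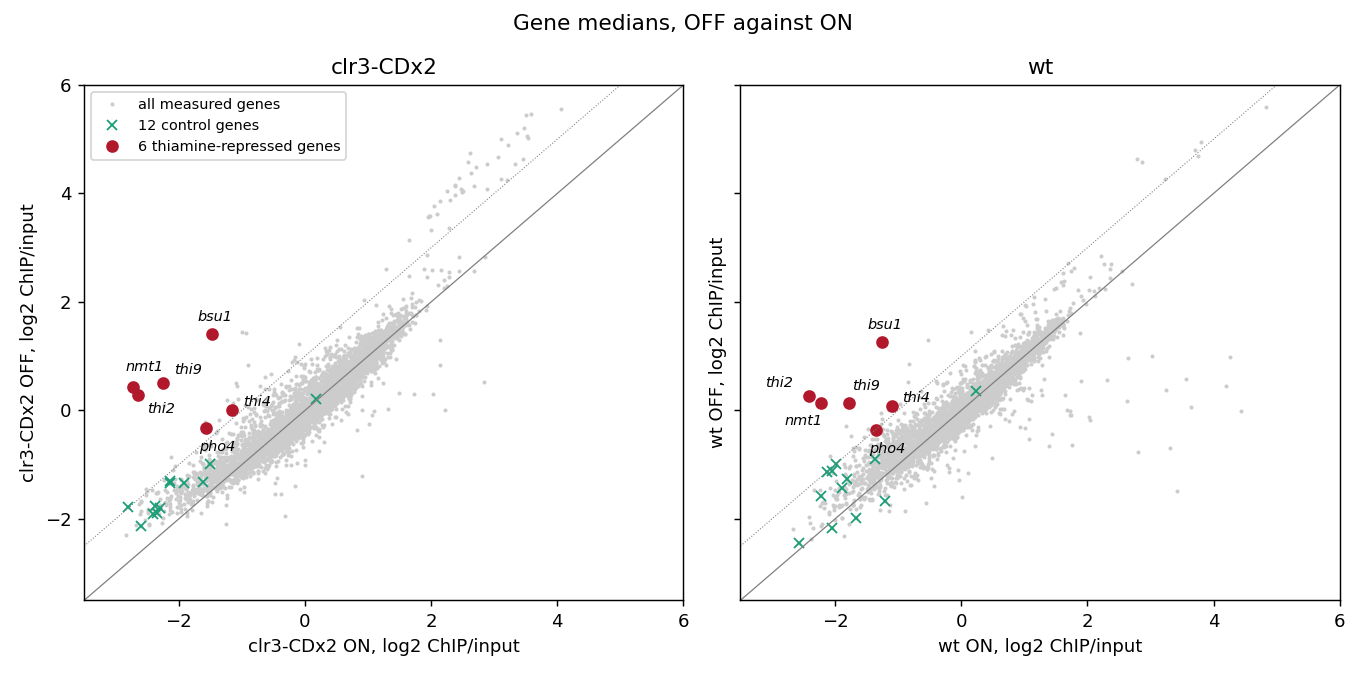
Median log2 ratio per gene in OFF cells (y axis) against ON cells (x axis) for clr3-CDx2 and wt; grey dots are the 4942 measured genes, crosses the 12 control genes and red circles the 6 thiamine-repressed genes. The solid line marks equal values and the dotted line a difference of 1, and all 6 genes lie above the dotted line in both panels.

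The members are set here beside other genes with a low ON level. Such genes were chosen on the ON array that is then subtracted, which by itself favours a positive difference. Of 624 other genes at -1 or less in clr3-CDx2 ON, 2.40% were at 1 or more for OFF minus ON, with a median difference of 0.23 and a 95th percentile of 0.86. Of 507 such genes in wt ON, 1.97% were at 1 or more, with a median of 0.26 and a 95th percentile of 0.86. A control list of 12 genes known as highly transcribed, among them adh1, pgk1, tef101 and act1, had median levels of -1.55 in clr3-CDx2 OFF and -2.22 in clr3-CDx2 ON, against -1.34 in wt OFF and -1.94 in wt ON. Their median OFF minus ON was 0.54 in clr3-CDx2 and 0.43 in wt, beside 0.02 and 0.01 over all genes. In that list 1 gene reached 1 in each genotype, fba1 (fructose-bisphosphate aldolase) at 1.02 in clr3-CDx2 and tef103 (translation elongation factor 1-alpha) at 1.05 in wt. These 2 values are close to those of thi4 and pho4. By the medians, the control list was as low as the members in ON cells and had a smaller difference. The members were picked on that difference and the control list was not, so this is a description. In the control list atb2 (tubulin) was not low, at 0.17 in clr3-CDx2 ON and 0.23 in wt ON.

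The ChIP and input channels were also read apart, each as log2 signal less the median tile of its array. In the ChIP channel OFF minus ON had a median of 2.49 over the 6 genes in clr3-CDx2, from 0.94 at thi4 to 3.58 at thi2, and of 1.77 in wt, from 0.89 at pho4 to 2.99 at thi2. It was at 1 or more at 5 of 6 genes in clr3-CDx2 and at 4 of 6 in wt. The share of all genes at 1 or more was not computed for this channel, where the median over all genes was 0.02 and 0.005. The members were picked on OFF against ON, so these counts are a description. In the input channel the medians were -0.11 in clr3-CDx2 and -0.14 in wt. The input was lower in OFF than in ON cells at bsu1, by -0.45 in clr3-CDx2 and -0.41 in wt, which adds to its ratio. At thi2 it was higher, by 0.57 and 0.29, which takes away from its ratio. Input differences of this size were the largest among the members, and the difference at each of the 6 genes lay mainly in the ChIP channel.

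**Figure D3:**
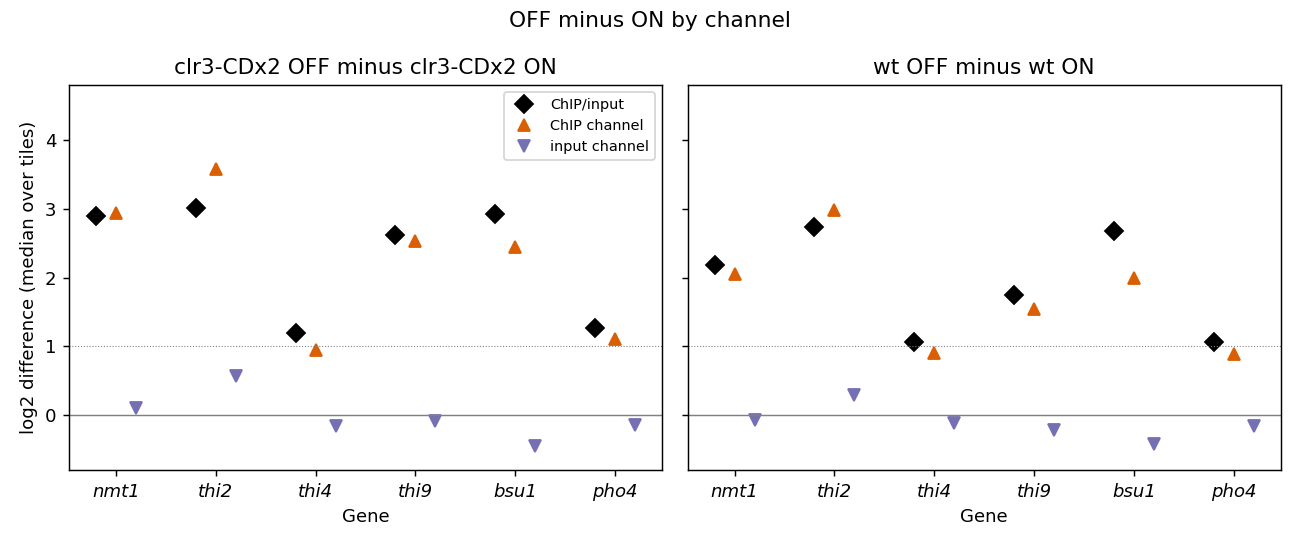
OFF minus ON at the 6 genes (median over tiles, log2) for the ratio of ChIP to input (diamonds), the ChIP channel (upward triangles) and the input channel (downward triangles), in clr3-CDx2 and in wt. The input differences stay between -0.45 and 0.57, while ChIP differences reach 3.58; the dotted line marks 1.

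The extent of the difference along the chromosome was read as the run of neighbouring tiles at 1 or more around each gene. The tiles inside the 6 intervals were at 1 or more in 34 of 39 usable cases (87.2%) in each genotype, against 3.07% of all tiles in clr3-CDx2 and 1.12% in wt. The intervals were picked on this contrast and adjacent tiles are not independent, so these shares are a description. The run spanned 5.1 kb at nmt1 in both genotypes. It spanned 3.6 kb in clr3-CDx2 and 3.3 kb in wt at thi2, 4.2 and 3.6 kb at bsu1, and 3.3 and 2.4 kb at thi9. At thi4 it was shorter in clr3-CDx2 (1.8 kb) than in wt (2.4 kb), and at pho4 longer (2.1 kb against 0.9 kb). The fragments were about 1000 bp, so a difference at a gene can reach tiles beside it.

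Along the genes the difference was larger towards the 5′ end at nmt1, thi2, thi4 and bsu1. At nmt1 the tiles of the 5′ part had a median difference of 3.53 in clr3-CDx2 and 2.69 in wt, and those of the 3′ part 2.10 and 1.62. At thi2 these were 3.34 and 2.89 in the 5′ part and 2.61 and 2.21 in the 3′ part. At bsu1 they were 3.52 and 2.79, against 2.90 and 2.43. At thi9 the 3′ part had the larger difference, 2.66 in clr3-CDx2 and 1.95 in wt, with 2.19 and 1.36 in the 5′ part. At pho4 the 5′ and 3′ parts were close, at 1.21 and 1.33 in clr3-CDx2.

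The intervals were fixed by array positions, and the tiles at their edges show that several of them end inside the run. At the 5′ end of the nmt1 interval the first tile inside had a difference of 3.62 in clr3-CDx2 and 2.74 in wt, and the next tile outside 2.76 and 2.75. At bsu1 the first tile inside had 3.58 and 3.06 and the next outside 3.02 and 2.77. At thi4 the last tile inside, at the 3′ end, had 0.15 in clr3-CDx2 and 0.51 in wt, and the next outside 0.33 and 0.19. At pho4 the tile just upstream of the interval read -1.03 in clr3-CDx2 OFF and -2.29 in clr3-CDx2 ON, a difference of 1.27, but -1.15 in wt OFF and -0.72 in wt ON, a difference of -0.43. It was not marked as non-uniform on any array.

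**Figure D4:**
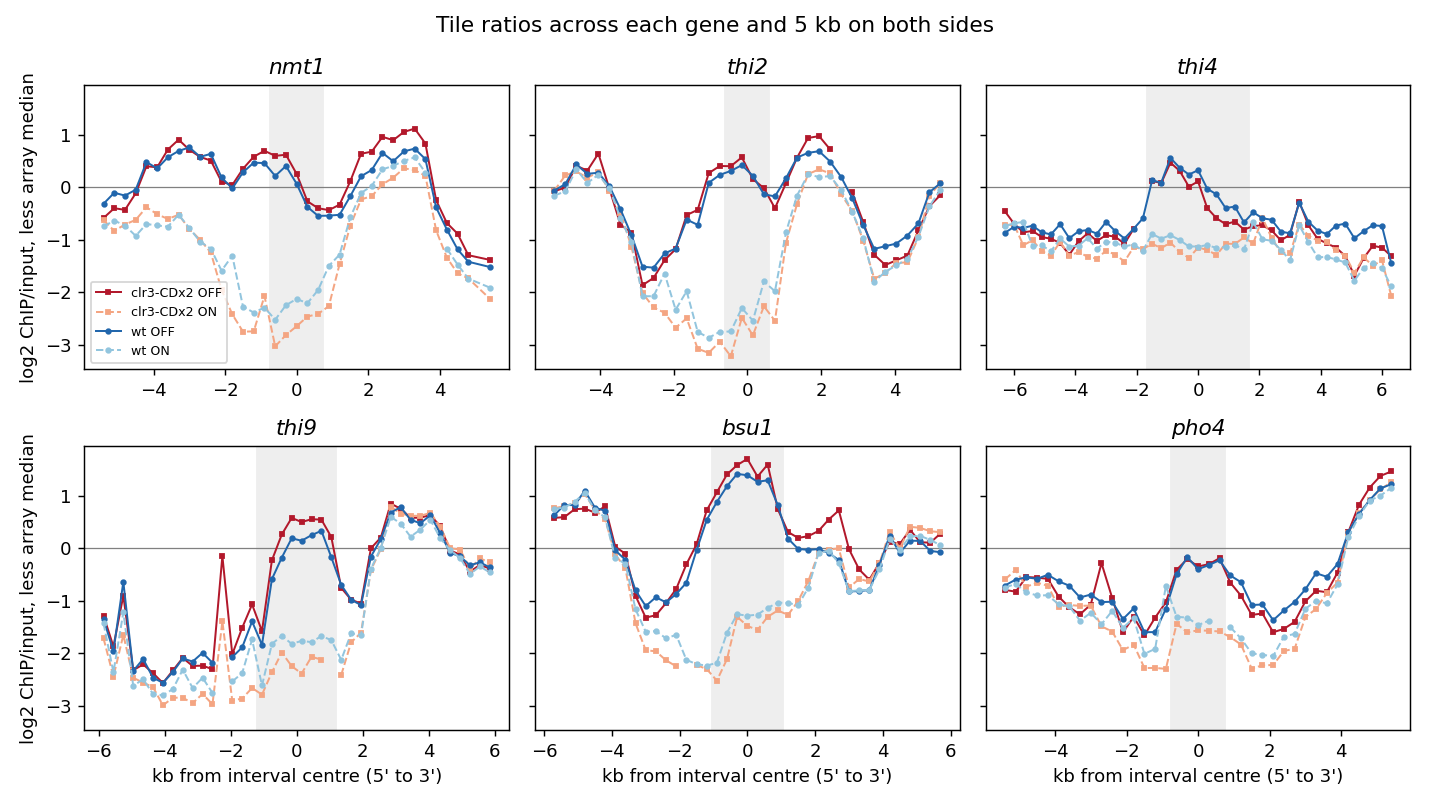
log2 ratio of ChIP over input, less the array median, at each tile of the 6 genes (shaded) and 5 kb on both sides, against distance from the centre of the interval in kb in the 5′ to 3′ direction of the gene; solid lines are OFF arrays and dashed lines ON arrays, red for clr3-CDx2 and blue for wt. OFF and ON lines part over each gene and mostly meet again within the flanks, least so upstream of nmt1.

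The genes next to the members had smaller differences, mostly in the same direction. Of 12 neighbours, the nearest measured gene on each side, 11 were above 0 in clr3-CDx2 and 12 in wt, with medians of OFF minus ON of 0.34 and 0.30, beside 0.02 and 0.01 over all genes. At 1 or more was 1 of 12 in each genotype, beside 1.52% of all genes in clr3-CDx2 and 0.587% in wt. That 1 gene was hel2, which encodes a ubiquitin-protein ligase and lies upstream of nmt1. It read 0.45 in clr3-CDx2 OFF and -0.71 in clr3-CDx2 ON, against 0.52 in wt OFF and -0.85 in wt ON, differences of 1.47 and 1.30. Of the 16 tiles in the 5 kb upstream of nmt1, 10 were at 1 or more in clr3-CDx2 and 12 in wt, more than in any other flank of the members. The gene beyond the 3′ end of nmt1, gut2 (glycerol-3-phosphate dehydrogenase), read 0.82 in clr3-CDx2 and 0.28 in wt. Upstream of bsu1, pan3, for a subunit of a poly(A) nuclease, read -0.11 and 0.04.

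Between genotypes the 6 genes differed little. The members were picked on OFF against ON, and the contrasts between genotypes are built from the same arrays. They are therefore not free of that choice, and the values are a description. In ON cells clr3-CDx2 minus wt was -0.51 at nmt1, -0.42 at thi9, -0.38 at thi2, -0.19 at bsu1, -0.16 at pho4 and -0.14 at thi4, with a median of -0.29. All 6 were below 0, as were 46.6% of all genes. The 507 genes at -1 or less in wt ON also read lower in clr3-CDx2 ON, by a median of -0.16, with a 5th percentile of -0.51 and a 95th of 0.20. In OFF cells clr3-CDx2 minus wt had a median of 0.14, from -0.21 at thi4 to 0.36 at thi9, and 5 of 6 were above 0 and 1 below, where 45.4% of all genes were below. No member reached 1 or -1 between genotypes in either state, where 0.364% of all genes were at 1 or more and 0.223% at -1 or less in ON cells, and 1.01% and 0.263% in OFF cells. Of their tiles, 0 of 38 usable ones were at 1 or more in ON cells and 0 of 40 in OFF cells, against 0.489% and 1.31% of all tiles. For so few genes and tiles, counts of 0 are near these shares and do not set the members apart.

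With the main processing the OFF minus ON difference was larger in clr3-CDx2 than in wt at all 6 genes, as it was at 49.1% of all genes. The excess was 0.88 at thi9, 0.71 at nmt1, 0.28 at thi2, 0.25 at bsu1, 0.21 at pho4 and 0.12 at thi4, with a median of 0.26. At thi9 and pho4 the genotypes did not use the same tiles. Over the 7 tiles of thi9 usable on all 4 arrays OFF minus ON was 2.62 in clr3-CDx2 and 1.91 in wt, and over the 4 such tiles of pho4 it was 1.24 and 1.06. Among 476 genes at -1 or less on both ON arrays the median excess was -0.02, with a 5th percentile of -0.61 and a 95th of 0.56, a range that holds 4 of the 6 members. The arrays also differed in spread: the median absolute deviation of the ratios was 0.708 in clr3-CDx2 OFF and 0.718 in clr3-CDx2 ON, against 0.608 in wt OFF and 0.652 in wt ON. With the arrays scaled to equal spread the median excess was 0.06, and the median of clr3-CDx2 ON minus wt ON was -0.08. That scaling reversed the direction at bsu1 (2.75 in clr3-CDx2 and 2.86 in wt) and thi2 (2.82 and 2.84), but not at the other members. The direction was also reversed at thi2 with normexp correction (2.24 and 2.33) and at thi4 with the mean over tiles (0.96 and 1.08). With 1 array per genotype and state, the excess could not be tested. It is also built from the arrays on which the members were picked, so it is a description.

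Other genes of thiamine metabolism were read from lists, which were written with earlier results of these data known. The list for thiamine uptake, synthesis and regulation held 6 measured genes outside the members. Its median OFF minus ON was 0.72 in clr3-CDx2 and 0.41 in wt. Of these 6 genes, 2 were at 1 or more in both genotypes, beside 0.425% of all measured genes. Both encode phosphomethylpyrimidine kinases. The first, thi201 (SPBP8B7.18c), read 0.20 in clr3-CDx2 OFF and -1.24 in clr3-CDx2 ON, against 0.02 in wt OFF and -1.15 in wt ON, differences of 1.51 and 1.30. The second, SPCC18B5.05c, read -0.21 in clr3-CDx2 OFF and -1.58 in clr3-CDx2 ON, against -0.04 in wt OFF and -1.28 in wt ON, differences of 1.33 and 1.21. Both read below -1 in ON cells and near the array median in OFF cells, as the members other than bsu1 did.

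The other 4 genes of that list stayed under 1. The related kinase gene thi20 gave 0.65 in clr3-CDx2 and 0.29 in wt. The transcription factor genes gave -0.17 and 0.13 at thi1, and 0.79 and 0.52 at thi5, with levels of thi5 above 0 on all 4 arrays. The gene tnr3, for thiamine diphosphokinase, gave 0.02 and 0.24. None of these 4 fell to -1 in ON cells.

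Of 5 genes of vitamin B6 metabolism 1 reached 1 in clr3-CDx2 and 0 in wt. This was snz1, for pyridoxal 5'-phosphate synthase, at 1.01 in clr3-CDx2 and 0.78 in wt. Of 9 genes for enzymes that use thiamine diphosphate 3 reached 1 in clr3-CDx2 and 0 in wt, all of them for pyruvate decarboxylases, beside the 1.52% and 0.587% of all genes given above. These were pdc101 (1.01 and 0.63), pdc102 (1.68 and 0.87) and pdc201 (1.81 and 0.23). Genes around pdc101 (chrI:101715-103597) also rose in clr3-CDx2. The next measured genes to its right read 0.90 and 0.79 there, and the nearest to its left 0.30. Whether the rise of pdc101 goes with its position or with its enzyme was not tested. Unlike the members, pdc102 was enriched on every array, at 5.11 in clr3-CDx2 OFF and 3.35 in clr3-CDx2 ON, against 1.78 in wt OFF and 0.94 in wt ON. The medians over these 9 genes were 0.12 in clr3-CDx2 and 0.14 in wt. Of 3 phosphate-repressed genes, which are in part relatives of pho4, 0 reached 1: pho84, a phosphate transporter gene, read 0.62 and 0.99, and pho1, an acid phosphatase gene, -0.08 and 0.79.

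Genes whose profile over the 4 arrays was nearest the median profile of the members were ranked by root mean square difference, with the members and their neighbours left out. That median profile was 0.35 in clr3-CDx2 OFF and -1.90 in clr3-CDx2 ON, against 0.14 in wt OFF and -1.57 in wt ON. Nearest was SPCC794.03, annotated in RefSeq as a thiamine transporter, at a distance of 0.32. It read 0.11 in clr3-CDx2 OFF and -2.24 in clr3-CDx2 ON, against -0.28 in wt OFF and -1.82 in wt ON. Next came SPCC18B5.05c at 0.37, thi201 at 0.41, SPBC530.07c at 0.50 and rsm18 at 0.54. SPBC530.07c is annotated as a protein of the TENA/THI family, and rsm18, for a mitochondrial ribosomal protein, lies beside SPCC18B5.05c. The members themselves lay at 0.21 (thi9) to 0.81 (bsu1) from their own median.

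Of 2123 genes below 0 on both ON arrays, 15 were at 1 or more for OFF minus ON in both genotypes, and 6 of these were the members. The members were picked on OFF against ON, so their place among the 15 follows from that choice. All 2123 genes were chosen on the ON arrays that are then subtracted. The other 9 were prz1, SPAC57A7.05, SPBC530.07c, thi201, SPCC794.03, SPCC18B5.05c, osh6, SPCC162.02c and hel2. The largest of them by the smaller of their differences were SPCC162.02c, for an AMP-binding dehydrogenase, at 2.35 in clr3-CDx2 and 1.86 in wt, SPAC57A7.05, for an uncharacterised protein, at 2.38 and 1.67, and SPCC794.03 at 2.23 and 1.55. Unlike most members, SPCC162.02c reached 1.42 in clr3-CDx2 OFF and 1.29 in wt OFF, as bsu1 did.

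No 31-base stretch of any of the 6 genes occurred more than once in the reference genome. Matches of the 60-mer probes themselves, and to the tetR-clr4 construct, were not tested. The median ChIP signal of an array was 137 to 166 times background and the median input signal 417 to 490 times. No tile of the members was too dim to measure, and 1 of their tiles was marked non-uniform on each ON array and none on the OFF arrays. Every difference given rests on 1 array per group.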

How the data were processed

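Per the file headers, the authors read the 2-colour arrays with Agilent Feature Extraction 12.0.3.1, which gave intensity per spot and channel, background-subtracted and dye-normalised linearly within each array. The deposited value table holds log2 of processed ChIP (Cy5) over input (Cy3) intensity, equal to the scanner values within a tolerance of 0.001. The genome build of the array and the aligner behind its probes are not given in the sources used here.

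From these intensities log2 ratios were computed and centred on each array's median tile, with 1417 control spots left out and no loess or quantile step. Spots marked non-uniform (190 to 578 per array) were left out where marked. All arrays lay on 1 slide, in 1 scan. Intervals follow the array's own positions. Tiles were assigned to RefSeq genes (ASM294v3) by 1 offset per chromosome arm (720 to 1660 bp on the arms holding the members) that best matched input signal to the GC content of the 60-mer. The correlation was 0.23 to 0.28 there and at most 0.10 further than 1 kb away. Offsets fitted near each member were 620 to 1560 bp, so edges of genes are uncertain by about 1 tile. Array positions and reference coordinates were not mixed.

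Members, gene lists and rules were chosen with earlier results of these data known. Named genes are the members, the nearest measured gene on each side, list genes that moved by 1 or more with up to 4 further examples per list, the 5 nearest profiles and the 5 largest other rises among genes low in ON cells. The synonym tub1 in the control list resolved to atb2. Scripts were tested on simulated data. Alternatives changed the background correction, centring, scale, marked spots, tile summary and gene extent; normexp used median spot intensity in place of the planned mean, with an offset of 50. Python 3.11.15, numpy 2.4.6, pandas 2.3.3, R 4.3.3 and limma 3.58.1 were used.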

Additional observations from a re-analysis of the deposited data

Results flagged for a closer look

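Several differences between OFF and ON cells had opposite signs in the genotypes, with 1 array each, and none of these contrasts between genotypes was tested. Among thiamine, vitamin B6 and thiamine diphosphate genes, thi1 read -0.17 in clr3-CDx2 and 0.13 in wt, plr1 (pyridoxal reductase) -0.22 and 0.0515, SPAC6F6.11c 0.0385 and -0.0543, and pdc202 -0.0654 and 0.0117. The phosphate-repressed gene pho1 read -0.0848 in clr3-CDx2 and 0.79 in wt. Of the 12 highly transcribed control genes, tdh1 and gpd3, both for glyceraldehyde-3-phosphate dehydrogenase, read 0.57 and 0.42 in clr3-CDx2 and -0.41 and -0.55 in wt. Beside the members, pan3 read -0.11 in clr3-CDx2 and 0.0441 in wt, the flank downstream of bsu1 0.13 and -0.00349, and the flank downstream of thi9 -0.0159 and 0.14. None of the 6 members had opposite signs, but they were picked on OFF against ON, so this follows from the choice.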

How the results depend on the processing

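No paired analysis was possible because each comparison sets 1 array against 1 array and no result here comes from a test; an additive fit of genotype and switch over all 4 arrays was not run. Each of the 12 OFF minus ON values of the members (6 genes in 2 genotypes) was recomputed under 8 alternatives, and all 96 values were above 0. Of these, 95 were at 1 or more; the exception was thi4 in clr3-CDx2 at 0.96 with the mean over tiles in place of the median, which left 5 of 6 members at 1 or more there. The ranges in clr3-CDx2 were 2.75 to 4.02 for bsu1, 2.24 to 3.19 for thi2, 2.71 to 3.16 for nmt1, 2.37 to 3.09 for thi9, 0.96 to 1.45 for thi4 and 1.15 to 1.79 for pho4. In wt they were 2.57 to 3.43, 2.33 to 2.92, 2.13 to 2.80, 1.63 to 2.41, 1.01 to 1.40 and 1.003 to 1.49 in the same order. The normexp correction gave the highest value at bsu1 and thi9 and the lowest at thi2 in both genotypes, which put thi2 below thi9; the cause was not tested. The median of clr3-CDx2 ON minus wt ON ran from -0.30 to -0.08. The median excess of clr3-CDx2 over wt ran from 0.06 to 0.42. The smaller sizes of both came with arrays scaled to equal spread and the largest excess with the mean over tiles. At all 8 alternatives the signs of both medians held, but the excess at bsu1, thi2 and thi4 fell below 0 under some of them. The median input difference of the members between clr3-CDx2 OFF and wt OFF was -0.00122 and moved to 0.00469 with centring on the mode, to 0.0210 without the first and last tile and to 0.00354 over tiles of the annotated gene; the cause was not tested. The deposited value table gives ratios alone, so no channel could be recomputed from it. Precision is limited by 1 array per group.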
